A study of Mus musculus with 24 samples.

Results

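The comparison described here sets 2 compounds that act on the circadian clock directly against each other in cells stimulated with transforming growth factor beta (TGFb). The cells were EMS404, a mouse hepatic stellate cell line. Of the 24 RNA-seq libraries of the series, 6 were compared: 3 from cells given SR9011 and TGFb, and 3 from cells given CLK8 and TGFb, chosen by their treatment labels alone. All 6 came from the same line, which was derived from C57Bl6 mouse liver, immortalized with SV40 and made to express human TLR4, so each value describes 1 line and not primary cells or animals. SR9011 is an agonist of the nuclear receptor REV-ERBalpha, and CLK8 disrupts the dimer of CLOCK and BMAL1. In both groups the compound was given for 24 h and was then kept for a further 24 h together with TGFb at 10 ng/mL. No source used here states the doses of the compounds, so a difference between the agents and a difference between their doses cannot be told apart. The other 18 libraries, 3 in each of 6 groups, were vehicle, TGFb alone, SR9011 alone, CLK8 alone, and the TGFb receptor inhibitor SB431542 with and without TGFb; they lent their spread to the test and served as background levels. Whether the groups without TGFb were kept in culture for the second period is not given. TGFb, time in culture and time with the compound therefore cannot be told apart in any comparison with those groups.

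CLOCK and BMAL1 bind DNA as a pair and switch on the Per, Cry and Nr1d genes. PER and CRY proteins feed back to inhibit the pair, and the REV-ERB proteins encoded by Nr1d1 and Nr1d2 repress Arntl, the gene for BMAL1. SR9011 and CLK8 therefore enter the same loop at different points, one by engaging a repressor and one by breaking up the activator. Hepatic stellate cells store vitamin A in healthy liver, and under TGFb they turn into contractile cells that secrete collagen, the main source of scar in liver fibrosis. The question the comparison addresses is where the expression programs of the cells under TGFb differ between these entry points.

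Expression was given as FPKM, mapped fragments scaled to transcript length and to the depth of the library, with a sum of FPKM per library of 503920 to 565731 in the 6 libraries and 10780 to 10875 genes at 1 FPKM or more. The FPKM sums of the 3 SR9011+TGFb libraries all lay above those of the 3 CLK8+TGFb libraries, a point that returns below where scaling matters. The number of reads per library is not in the FPKM table, but the size of the smallest steps between low values put the relative depth of the 6 libraries between 0.992 and 1. Of the 9 listed stellate markers, Vim, Col1a1, Col1a2, Hand2, Pdgfrb and Lhx2 were all expressed in the 6 libraries. Des lay between 0.01 and 0.23 FPKM, Reln was listed at 0 throughout, and Lrat had no value in the data used. All 5 hepatocyte markers were listed at 0 in the 6 libraries. The stellate markers summed to 2474 to 2579 FPKM with SR9011+TGFb and to 4497 to 5141 with CLK8+TGFb, most of it from Col1a1 and Col1a2. Of the 6 listed macrophage and leukocyte markers, Adgre1 and Clec4f had no value in the data used. The sum of the other 4 was at 0.03 to 0.19 FPKM with SR9011+TGFb and 0.25 to 0.26 with CLK8+TGFb. Summed endothelial markers were at 0.36 to 0.42 and 0.14 to 0.20, and cholangiocyte markers at 1.29 to 1.57 and 1.96 to 3.19. These sums did not overlap between the groups, and their part in the results below was not tested. Mesothelial and portal fibroblast markers summed to 110 to 121 FPKM with SR9011+TGFb and 101 to 120 FPKM with CLK8+TGFb. Nearly all of it came from the mesothelial genes Gpm6a, Msln, Upk3b, Wt1 and Lrrn4. The portal fibroblast markers Thy1 and Entpd2 lay at or under 0.15 FPKM in the 6 libraries. In bulk RNA, fewer cells of a type and less RNA per cell cannot be told apart.

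Of 16604 genes, 11297 reached 1 FPKM in at least 3 of the 24 libraries and were tested on log2(FPKM + 1) with limma, with p-values adjusted by Benjamini-Hochberg over all tested genes and a threshold of 0.05. The p-values measure the spread between these triplicate cultures. Every log2 difference below is SR9011+TGFb minus CLK8+TGFb unless another pair is named, and because 1 is added before the log, it understates the change of genes at low levels. The treatments differed at 6053 genes (53.6%), of which 3218 (28.5%) were higher with SR9011+TGFb and 2835 (25.1%) lower. After rescaling each library to a common sum (TPM) the split became 1881 higher and 4475 lower, and the median difference over all genes went from 0.01 to -0.10; differences below are therefore read relative to such a shift. Changes of at least 2-fold were fewer: 62 genes (0.549%) were higher and 167 (1.48%) lower with SR9011+TGFb. The 3 values of one group lay wholly above those of the other in 3978 genes for SR9011+TGFb (35.2%) and in 3472 for CLK8+TGFb (30.7%), which is the background for every statement below that groups did not overlap. Most named genes were picked for large differences in these same libraries. A lack of overlap among them describes their levels and adds no evidence. Against the TGFb libraries, which both contrasts share, SR9011+TGFb differed at 6871 genes (60.8%) and CLK8+TGFb at 4638 (41.1%). With so many genes past the threshold, membership of a called set says little by itself, and the counts below stand beside these shares.

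**Figure D1:**
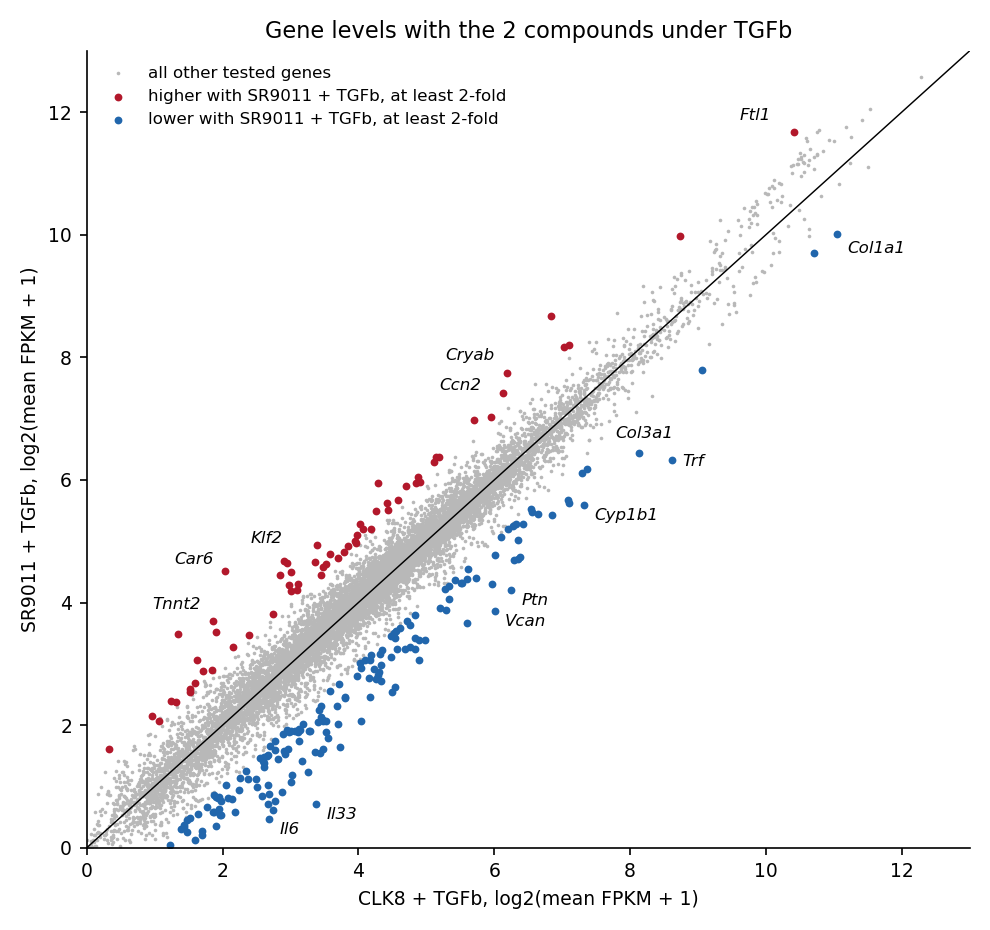
Mean level of each of the 11297 tested genes with CLK8+TGFb (horizontal axis) and with SR9011+TGFb (vertical axis), both as log2(mean FPKM + 1), 3 libraries each; the line marks equal levels. Coloured points passed the adjusted threshold with a change of at least 2-fold, 62 above the line and 167 below it, and the lower points include Il33, Il6, Vcan, Trf and Col1a1.

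Among the named genes, the largest difference toward CLK8+TGFb was in Il33 (chr19:29925114-29960718, GRCm38), which encodes an alarmin cytokine released by damaged stromal cells. Its FPKM was 0.79, 0.51 and 0.62 in the 3 SR9011+TGFb libraries and 7.75, 10.3 and 10.2 in the 3 CLK8+TGFb libraries. The groups were far apart, with a 14.7-fold higher mean under CLK8+TGFb and a log2 difference of -2.66 ± 0.10 (SE; limma, adjusted p = 5.2e-15). TGFb alone stood at 16.2 ± 0.88 FPKM (SD, n = 3) and vehicle at 13.7, so the CLK8+TGFb libraries were below TGFb too. Il6 (chr5:30013114-30019981), a cytokine that drives the acute phase response, read 0.46, 0.28 and 0.41 FPKM with SR9011+TGFb against 5.02, 5.16 and 6.13 with CLK8+TGFb, a log2 difference of -2.22 ± 0.09 (adjusted p = 6.6e-15). CLK8+TGFb did not move Il6 from its level in TGFb alone, 4.86 ± 0.59 FPKM (SD, n = 3), by a difference that passed the test (adjusted p = 0.22), and all 3 SR9011+TGFb libraries were below every TGFb library.

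Other genes at the head of the lower set were Trf, the iron carrier transferrin, and Ptn, the heparin-binding growth factor pleiotrophin. Trf was at 93.6, 63.4 and 81.9 FPKM with SR9011+TGFb and at 342, 409 and 421 FPKM with CLK8+TGFb, where TGFb alone gave 363. Ptn read 20.4, 14.5 and 17.7 FPKM against 73.0, 74.8 and 78.2. In both genes the lowest CLK8+TGFb library stood more than 3-fold above the highest SR9011+TGFb library. The rest of the 15 largest falls were Vcan, Vstm2a, Zbp1, Tgtp1, Car9, C4b, Sprr1a, Apln, Serpina3g, Slpi and Ifit3, with log2 differences from -2.15 to -1.93. Among them are an innate sensor of nucleic acids (Zbp1), complement component C4 (C4b), the apelin peptide (Apln) and a secreted inhibitor of leukocyte proteases (Slpi). Exons of Tgtp1 overlap those of Gm12185, and the strand setting of the counting is not given, so its value may hold reads of both.

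At the other end, Car6, a secreted carbonic anhydrase (chr4:150187015-150201332), read 16.8, 31.0 and 18.1 FPKM with SR9011+TGFb and 3, 3.02 and 3.28 with CLK8+TGFb. Its log2 difference of 2.44 ± 0.16 (adjusted p = 2.7e-11) was the largest increase that the naming rule admitted, and replicate 2 of SR9011+TGFb was the highest library. Avil, which encodes the actin-binding protein advillin, behaved the same way at 6.83, 15.4 and 8.34 against 1.23, 1.83 and 1.55 FPKM; its exons overlap those of Tsfm. Tnnt2, cardiac troponin T, stood at 11.9, 11.0 and 13.1 against 2.80, 2.04 and 3.08 FPKM. Klf2, a transcription factor best known from endothelium, read 21.9, 27.8 and 23.7 FPKM against 6.34, 6.82 and 6.34. The naming rule admitted only genes whose groups did not overlap, so the separation of these 4 was set in advance. The 15 largest increases also held Nbl1 (a secreted BMP antagonist), Hmga1 (a chromatin protein), Plxdc1, Adamtsl5, Cryab (a small heat shock protein), Trnp1, Fam180a, Cilp2, Plac9b, St3gal4 and Birc7, at log2 differences of 1.29 to 1.70. Exons of Cryab overlap Hspb2 and those of Hmga1 overlap AI413582.

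Most core clock genes differed little between the groups. Of 15 tested core clock genes, 5 were higher with SR9011+TGFb, a share near the 28.5% of all tested genes. None was lower, against 25.1% of all tested genes. The median log2 difference was 0.18 against 0.01 over all tested genes. The counts became 2 higher and 2 lower under TPM scaling, 8 and 0 with group weights, and 9 and 0 with the compared groups alone. Per1, the period gene that responds fastest to outside signals (chr11:69095217-69109960), was the single clock gene past 2-fold. It stood at 16.7, 17.1 and 18.3 FPKM with SR9011+TGFb and at 7.12, 8.04 and 7.47 with CLK8+TGFb, a log2 difference of 1.10 ± 0.06 (adjusted p = 1.1e-12). The CLK8+TGFb level lay near TGFb alone (6.94 ± 0.38 FPKM, SD, n = 3) and vehicle (7.65), and the SR9011+TGFb level lay near SR9011 alone (16.9). The other 4 calls were small: Rora 0.36, Clock 0.32, Cry2 0.25 and Cry1 0.25 on the log2 scale. Of these, Clock (adjusted p = 0.095), Cry1 (0.12) and Cry2 (0.064) did not pass under TPM scaling.

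Arntl and Nr1d1, the genes closest to the targeted proteins, differed little in level. Arntl, the gene repressed by REV-ERB, read 12.2, 11.1 and 12.4 FPKM with SR9011+TGFb and 12.5, 12.9 and 12.6 with CLK8+TGFb, and did not pass the test (log2 difference -0.08, adjusted p = 0.19), although it did under TPM scaling (-0.20, adjusted p = 0.0052). Nr1d1, the gene for REV-ERBalpha, gave 4.83, 4.34 and 4.43 against 4.04, 3.97 and 3.61 FPKM. These groups did not overlap, yet the difference of 0.18 missed the threshold (adjusted p = 0.066) and passed it in 4 alternatives, with quantile normalization (0.048), group weights (0.039), the replicate block (0.033) and the compared groups alone (0.024). Exons of Nr1d1 overlap those of Thra on the opposite strand, so its count may hold reads of both. Nr1d2 (0.19, adjusted p = 0.12) passed with group weights (0.019) and with the compared groups alone (0.0049). Ciart (0.32, adjusted p = 0.071) passed with the replicate block (0.039), group weights (0.037), the compared groups alone (0.0094) and without replicate 2 of CLK8+TGFb (0.049). Per2, Per3 and Dbp, at -0.08, 0.00 and 0.10, did not pass, and Npas2 was at 0.36 to 0.74 FPKM, too low to be tested.

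Among the clock-controlled output factors, 5 of 17 were higher and 2 lower, shares near or under those of all genes; 8 were higher with the replicate block, 9 with group weights and 10 with the compared groups alone. Hlf and Tef, which encode PAR bZIP activators that read the D-box, were higher with SR9011+TGFb at log2 differences of 0.93 and 0.39. Hlf read 6.11, 4.23 and 5.96 FPKM against 2.51, 2.32 and 2.2. Nfil3, the repressor that competes with those activators for the same sites, went the other way, at 24.9, 22.2 and 24.2 against 32.1, 33.1 and 34.8 FPKM (log2 difference -0.47, adjusted p = 8.3e-07). Of 12 tested genes listed as targets of REV-ERB and ROR elements, 4 were higher and 6 lower (2 and 7 under TPM scaling); the lower ones were led by Il6, Mmp9 and Ccl2, which also belong to the inflammatory genes described below, and Plin2, a lipid droplet coat protein, led the higher ones at 0.56.

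A promoter of Per1 is shown because Per1 was the clock gene that differed most and this window carries an E-box, CACGTG, the element that CLOCK and BMAL1 read. The window covers the 250 bases before a RefSeq start of transcription on GRCm38.p6, at chr11:69098699-69098948 on the plus strand. It lies inside the gene span given above, so that start is an internal one, and only windows that hold the letters were printed. The sequence is written 5′ to 3′ with the E-box in capitals, first base at -166.
Per1: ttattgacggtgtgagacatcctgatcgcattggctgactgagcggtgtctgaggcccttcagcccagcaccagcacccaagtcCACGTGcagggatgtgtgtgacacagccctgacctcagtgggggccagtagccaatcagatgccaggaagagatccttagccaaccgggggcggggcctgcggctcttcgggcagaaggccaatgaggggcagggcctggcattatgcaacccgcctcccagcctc
The E-box reads the same on both strands. Shares of windows, here and below, were counted over longer windows than the printed ones. These hold the 250 bases before each start and a short stretch after it. The E-box was found in 10.1% of the 11511 promoter windows matched to 8993 of the tested genes. It was in 15.4% of the 52 windows of genes at least 2-fold higher and in 7.59% of the 145 windows of genes at least 2-fold lower. The ROR element TAGGTCA, searched on both strands, was in 1.81% of all windows, 3.85% of the higher and 2.07% of the lower ones. A match of letters is a description and not evidence of binding.

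Structural collagens and most other matrix genes were lower with SR9011+TGFb than with CLK8+TGFb. Of 19 tested collagen genes, 13 were lower and 5 higher, with a median log2 difference of -0.56. Col1a1 (chr11:94936224-94953042), the alpha 1 chain of type I collagen that makes up most scar, was at 1047, 1006 and 1028 FPKM with SR9011+TGFb and at 1956, 2306 and 2064 with CLK8+TGFb. Every CLK8+TGFb library exceeded every SR9011+TGFb library, by 2.05-fold in the mean and -1.03 ± 0.08 (SE) on the log2 scale (adjusted p = 4.3e-10). Col1a2, its partner chain, differed by -1.01. Col3a1, which encodes the type III chain that co-assembles with type I, read 92.7, 80.3 and 83.4 against 255, 308 and 276 FPKM (-1.70 ± 0.13, adjusted p = 1.5e-09). Col12a1, a collagen that sits on the surface of type I fibrils, was also lower by more than 2-fold, at -1.01.

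Placed beside TGFb alone, which both contrasts share, the compounds took these genes to different levels. Col1a1 with SR9011+TGFb was 1.23 lower on the log2 scale than with TGFb alone (log2 difference -1.23, adjusted p = 9.3e-12), while with CLK8+TGFb it was -0.20 (adjusted p = 0.055). For Col3a1 the same values were -1.76 (adjusted p = 4.1e-10) and -0.06 (adjusted p = 0.75). Over the collagen list, 15 of 19 genes were lower than TGFb alone with SR9011+TGFb (24.0% of all tested genes were) and 13 with CLK8+TGFb (13.3% of all tested genes), at medians of -0.86 and -0.24. 

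The remaining matrix proteins followed with 21 of 29 lower and 2 higher, at a median of -0.45. Vcan, the large hyaluronan-binding proteoglycan versican (chr13:89655312-89742509), lay on opposite sides of TGFb alone in the 2 groups, farther from it with CLK8+TGFb. It read 14.1, 13.1 and 13.4 FPKM with SR9011+TGFb and 64.6, 65.2 and 60.3 FPKM with CLK8+TGFb, against 16.7 ± 0.44 (SD, n = 3) with TGFb alone and 1.91 with vehicle. The direct difference was -2.15 ± 0.07 (adjusted p = 2.4e-16), and against TGFb alone it was 1.86 with CLK8+TGFb and -0.28 with SR9011+TGFb. Spp1, the matrix cytokine osteopontin, was at 29.7, 21.8 and 25.9 against 90.3, 77.9 and 79.3 FPKM, both below the 161 ± 19 (SD, n = 3) of TGFb alone. Mfap4 and Nid2, a microfibril protein and a basement membrane nidogen, differed by -1.37 and -1.23. Postn, the matricellular protein periostin, separated the compounds little: 15.97, 10.8 and 14.2 against 17.8, 17.8 and 15.4 FPKM, with overlapping groups, both under the 41.3 FPKM of TGFb alone. Its difference of -0.31 passed at adjusted p = 0.011, but not without replicate 2 of SR9011+TGFb (-0.16, adjusted p = 0.13), with a pseudocount of 0.1 (0.077) or with the compared groups alone (0.073).

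Genes that crosslink, process or degrade matrix were divided, with 10 of 34 higher and 16 lower. Mmp9, a gelatinase, was at 0.17, 0.12 and 0.17 FPKM with SR9011+TGFb and at 2.23, 2.46 and 2.01 with CLK8+TGFb. Plod2, the lysyl hydroxylase of collagen crosslinks, and Adamts2, the protease that trims procollagen, were lower by -1.13 and -1.03. Timp1, an inhibitor of matrix metalloproteinases, read 145, 143 and 128 against 223, 208 and 220 FPKM (-0.64, adjusted p = 5.1e-08). Ctsk, the collagen-degrading cathepsin K, was higher at 3.79, 4.65 and 4.12 against 1.24, 1.61 and 1.59 FPKM. For these 5 genes the groups did not overlap.

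Not every readout of TGFb followed the collagens. Ccn2, the matricellular growth factor CTGF (chr10:24595442-24598683), was at 189, 135 and 183 FPKM with SR9011+TGFb and at 85.7, 65.3 and 56.9 FPKM with CLK8+TGFb. The lowest SR9011+TGFb library exceeded the highest CLK8+TGFb library, and the difference was 1.28 ± 0.26 (SE; adjusted p = 0.00042). SR9011+TGFb left Ccn2 near its 174 ± 7.8 FPKM (SD, n = 3) in TGFb alone (-0.06, adjusted p = 0.87), whereas CLK8+TGFb was lower by 1.34 on that scale (-1.34, adjusted p = 0.00047). Acta2, the smooth muscle actin that marks myofibroblasts (chr19:34241090-34255590), showed the same arrangement at 209, 164 and 194 against 118, 102 and 103 FPKM (0.80 ± 0.14, adjusted p = 0.0001). Acta2 in TGFb alone was at 189 FPKM, from which SR9011+TGFb differed by 0.00 and CLK8+TGFb by -0.81. In the same libraries in which Col1a1 was lower with SR9011+TGFb, Acta2 and Ccn2 were lower with CLK8+TGFb.

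The other contractile genes did not follow Acta2 as a group. Of 18 tested, 5 were higher and 5 lower, at a median of 0.04, and TPM scaling made that 2 higher and 7 lower. Tagln, which encodes the actin-binding protein transgelin, read 73.9, 56.8 and 70.9 against 63.4, 59.9 and 56.5 FPKM, with overlapping groups and no call (0.15, adjusted p = 0.46); its exons overlap those of Pcsk7. Mylk, the myosin light chain kinase, was higher at 0.38, and Flna, the actin crosslinker filamin A, lower at -0.43. Replicate 2 was the lowest SR9011+TGFb library in 16 of the 18 genes, against 4370 of all 11297 tested genes, and leaving it out gave 5 higher and 4 lower.

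Of 29 tested genes of the TGFb and SMAD response, 16 were lower and 6 higher, at a median of -0.28. Tgfbi, a secreted adhesion protein, was at 2.79, 1.53 and 1.90 FPKM with SR9011+TGFb and at 8.71, 10.3 and 11.4 with CLK8+TGFb. Rasl11b, a small GTPase, and Ltbp2, a latent TGFb binding protein relative, were lower by -1.43 and -0.89. Tgfb1, the ligand itself, went the other way at 43.7, 46.6 and 45.6 against 27.3, 26.4 and 28.9 FPKM (0.70 ± 0.05, adjusted p = 8.7e-11). Smad7, the inhibitory SMAD that TGFb induces as feedback, did not differ past the threshold: 7.69, 8.09 and 8.30 against 8.38, 8.07 and 8.89 FPKM (-0.07, adjusted p = 0.44), although under TPM scaling it did (-0.18, adjusted p = 0.030).

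**Figure D2:**
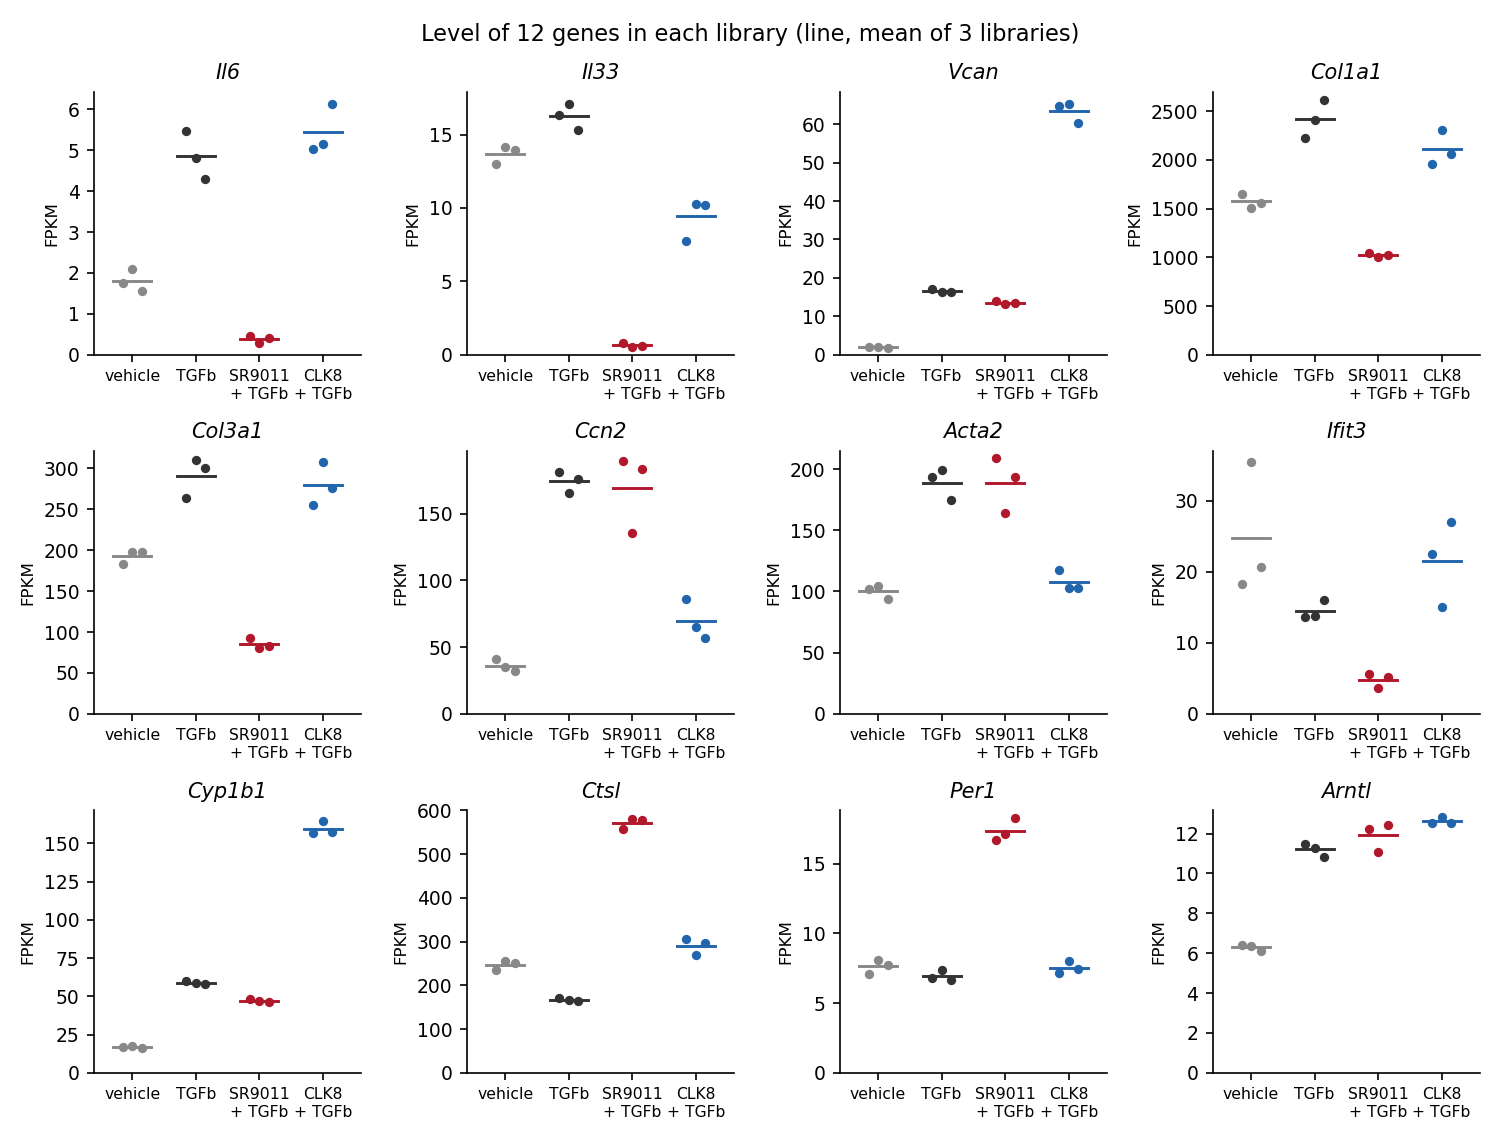
FPKM of 12 genes in the 3 SR9011+TGFb and the 3 CLK8+TGFb libraries (points) with the group means (lines), beside the TGFb and vehicle libraries; each panel has its own vertical axis in FPKM, from 0. Il6, Il33, Col1a1 and Col3a1 are low with SR9011+TGFb, Ccn2 and Acta2 are low with CLK8+TGFb, Vcan and Cyp1b1 are high with CLK8+TGFb, and Arntl is level across both.

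Inflammatory and chemokine genes were lower with SR9011+TGFb in 16 of 25 tested cases and higher in 3, at a median of -0.46. Beside Il33 and Il6, the naming rule picked Cxcl10 and Il1rl1. Cxcl10, a chemokine that draws in T cells, was at 28.8, 21.5 and 24.7 FPKM with SR9011+TGFb and at 86.6, 59.2 and 85.1 with CLK8+TGFb; TGFb alone gave 177 ± 15 (SD, n = 3), above both. Il1rl1, the receptor ST2 that binds IL-33, read 0.31, 0.18 and 0.33 against 3.17, 2.59 and 2.42 FPKM. The ligand and its receptor were thus both lower with SR9011+TGFb. Ccl2, the monocyte chemoattractant, was at 27.5, 16.8 and 23.3 against 57.9, 40.3 and 45.5 FPKM (-1.07 ± 0.16, adjusted p = 1e-05), and TGFb alone was higher than either at 134 ± 4.6 FPKM (SD, n = 3). Exons of Cxcl10 overlap those of Art3.

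Interferon response genes leaned toward CLK8+TGFb. Of 30 tested genes, 25 were lower with SR9011+TGFb and 1 was higher, at a median of -0.68. Ifit3, an interferon-induced protein that binds viral RNA complexes, was at 5.56, 3.68 and 5.21 FPKM with SR9011+TGFb and at 22.5, 15.1 and 27.0 with CLK8+TGFb (-1.93 ± 0.24, adjusted p = 1.5e-06). Ifit1, its partner that recognizes unmethylated caps, read 11.0, 7.86 and 9.57 against 33.2, 22.2 and 36.4 FPKM. Gbp2 and Gbp3, guanylate-binding proteins that attack intracellular pathogens, both differed by -1.74. In each of these 4 genes the groups did not overlap, and the mean of TGFb alone lay between the group means. Against TGFb alone, 20 of the 30 were lower and 7 higher with SR9011+TGFb, at a median of -0.56. Of all tested genes, 24.0% were lower and 36.8% higher there. With CLK8+TGFb 19 of the 30 were higher and 0 lower, at a median of 0.35, against 27.7% and 13.3% of all tested genes. TGFb alone itself lay below vehicle over this list, at a median of -0.55. Ifit3 read 18.25, 35.43 and 20.65 FPKM in vehicle, so a level above TGFb alone is not a level above unstimulated cells. Replicate 2 was the lowest CLK8+TGFb library in 30 of 30 of these genes, against 3785 of all 11297; leaving out any 1 of the 6 libraries gave 24 to 25 lower genes. The single higher member was B2m, the light chain of MHC class I, at 1852, 1800 and 1692 against 1111, 983 and 1160 FPKM (0.72, adjusted p = 1.9e-06); it was picked out after its values were seen, and 4 members were higher with the compared groups alone.

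Interferon-stimulated genes carry response elements built from repeats of GAAA. The letters GAAA, any 2 bases and GAAA again, searched on both strands and chosen after the values were seen, were in 37.5% of the 32 promoter windows of the interferon list, 12.4% of the 145 windows of genes at least 2-fold lower, 1.92% of the 52 windows of genes at least 2-fold higher and 2.99% of all windows. The 250 upstream bases of the 4 named genes and of B2m are given to show that the gene that went the other way holds the letters too. They are RefSeq windows on GRCm38.p6, all on the plus strand, at chr19:34640639-34640888 for Ifit1, chr19:34583279-34583528 for Ifit3, chr3:142620413-142620662 for Gbp2, chr3:142559794-142560043 for Gbp3 and chr2:122147437-122147686 for B2m. Capitals mark the matches, which appear as TTTC, 2 bases and TTTC where the element lies on the other strand; in Gbp3 2 matches overlap.
Ifit1: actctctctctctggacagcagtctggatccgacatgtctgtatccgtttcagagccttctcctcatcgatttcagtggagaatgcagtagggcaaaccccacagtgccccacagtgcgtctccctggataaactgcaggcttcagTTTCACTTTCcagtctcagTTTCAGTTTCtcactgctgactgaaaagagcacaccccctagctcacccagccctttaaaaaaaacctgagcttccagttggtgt
Ifit3: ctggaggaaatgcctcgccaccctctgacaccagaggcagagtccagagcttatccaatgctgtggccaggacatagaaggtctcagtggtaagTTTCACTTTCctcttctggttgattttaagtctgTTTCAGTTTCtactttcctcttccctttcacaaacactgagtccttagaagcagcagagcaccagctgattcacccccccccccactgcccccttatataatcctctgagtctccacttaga
Gbp2: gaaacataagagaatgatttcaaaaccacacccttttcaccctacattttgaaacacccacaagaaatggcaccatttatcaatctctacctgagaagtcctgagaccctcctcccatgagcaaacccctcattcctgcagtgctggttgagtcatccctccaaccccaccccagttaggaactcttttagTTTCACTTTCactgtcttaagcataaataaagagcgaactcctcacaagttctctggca
Gbp3: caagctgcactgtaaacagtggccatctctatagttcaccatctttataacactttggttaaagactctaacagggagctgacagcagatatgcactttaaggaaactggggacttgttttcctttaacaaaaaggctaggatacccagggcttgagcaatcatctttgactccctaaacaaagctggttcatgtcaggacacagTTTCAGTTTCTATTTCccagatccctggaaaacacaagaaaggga
B2m: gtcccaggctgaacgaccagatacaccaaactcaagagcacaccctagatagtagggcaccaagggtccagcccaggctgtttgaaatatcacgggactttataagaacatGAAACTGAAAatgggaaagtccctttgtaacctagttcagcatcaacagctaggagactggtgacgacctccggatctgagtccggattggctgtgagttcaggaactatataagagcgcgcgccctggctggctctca
The match in B2m begins at -139 and that in Gbp2 at -59. Of these 5 genes, 4 were lower and B2m higher with SR9011+TGFb.

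Targets of the aryl hydrocarbon receptor (AhR) were mostly higher with CLK8+TGFb. AhR is a ligand-activated factor that senses foreign and dietary aromatic compounds and switches on cytochrome P450 genes. Of 7 tested targets, 5 were lower with SR9011+TGFb and 2 higher, at a median of -0.71. Cyp1b1 (chr17:79701537-79715061) read 48.2, 47.0 and 46.2 FPKM with SR9011+TGFb and 157, 164 and 157 with CLK8+TGFb, a log2 difference of -1.74 ± 0.05 (SE; adjusted p = 2.4e-16). Its level in TGFb alone was 58.9 ± 0.69 (SD, n = 3), from which CLK8+TGFb differed by 1.42 and SR9011+TGFb by -0.32. Cyp1a1, the most AhR-specific member, was at 0.12, 0.10 and 0.06 against 1.91, 2.32 and 1.81 FPKM, with TGFb alone at or under 0.02. Cyp1a1 passed the filter of 1 FPKM only through the libraries given CLK8, and all others were at or under 0.36 FPKM. Its calls in the counts of this list are therefore not independent of the filter. Tiparp, a feedback ADP-ribosyltransferase, and Aldh3a1, an aldehyde dehydrogenase, were lower by -0.71 and -1.12. Over the 7 genes, 6 were higher and 1 lower with CLK8+TGFb than with TGFb alone, at a median of 1.06. Of all tested genes, 27.7% were higher and 13.3% lower there. With SR9011+TGFb 4 of the 7 were higher and 2 lower, at 0.19, against 36.8% and 24.0% of all tested genes. The core letters of the AhR element, TNGCGTG on both strands and chosen after the values were seen, were in 8.09% of all windows and in 0 of the 5 windows of this list.

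Lysosomal and autophagy genes were higher with SR9011+TGFb in 23 of 26 tested cases and lower in 0, at a median of 0.55 (19 and 0 under TPM scaling). Ctsl, the protease cathepsin L (chr13:64359337-64370890), was at 557, 580 and 579 FPKM with SR9011+TGFb and at 306, 269 and 296 with CLK8+TGFb (0.98 ± 0.05, adjusted p = 1.5e-12). Gpnmb, a lysosomal membrane glycoprotein, stood at 19.6, 18.02 and 18.5 against 9.26, 6.43 and 7.20 FPKM, where TGFb alone gave 0.757 and vehicle 5.15, 5.9 and 4.7. Neu1 and Hexa, hydrolases that remove sialic acid and hexosamine, were higher by 1.10 and 0.97; exons of Hexa overlap those of Tmem202. For these 4 genes both groups lay above TGFb alone and did not overlap each other. Across the list, 23 genes were higher than TGFb alone with SR9011+TGFb (36.8% of all tested genes were) and 20 with CLK8+TGFb (27.7%), at medians of 1.03 and 0.47. TGFb alone lay below vehicle over the list, at a median of -0.37. Replicate 2 was the lowest CLK8+TGFb library in 24 of the 26, and leaving out any 1 library gave 22 to 23 higher genes.

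Many lysosomal genes share the element TCACGTGA, read by the transcription factor TFEB, which is palindromic and contains an E-box. Chosen after the values were seen, it was in 4 of the 25 windows (16%) of this list, against 1.93% of all windows, 1.92% of those at least 2-fold higher and 2.76% of those at least 2-fold lower. The windows of Ctsd, the protease cathepsin D, and Gla, alpha-galactosidase A, are shown as examples, picked because they hold the element. They lie on the minus strand at chr7:142387828-142388077 and chrX:134601006-134601255, RefSeq on GRCm38.p6, and are written 5′ to 3′ along the gene with the element in capitals.
Ctsd: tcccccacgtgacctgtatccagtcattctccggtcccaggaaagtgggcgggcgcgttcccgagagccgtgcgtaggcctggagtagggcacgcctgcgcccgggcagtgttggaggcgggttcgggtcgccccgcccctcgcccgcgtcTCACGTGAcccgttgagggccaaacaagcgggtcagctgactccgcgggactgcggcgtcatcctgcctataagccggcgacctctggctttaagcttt
Gla: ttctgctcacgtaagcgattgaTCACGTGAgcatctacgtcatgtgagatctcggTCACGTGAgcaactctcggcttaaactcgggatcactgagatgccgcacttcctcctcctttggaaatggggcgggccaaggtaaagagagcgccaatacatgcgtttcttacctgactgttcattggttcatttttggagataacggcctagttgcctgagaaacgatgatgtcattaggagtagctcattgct
Ctsd was at 582, 549 and 566 against 367, 324 and 348 FPKM, and Gla at 21.4, 21.9 and 22.01 against 11.6, 11.3 and 12.01 FPKM. Both were higher with SR9011+TGFb in every library, by 0.71 and 0.85 on the log2 scale.

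Stress-responsive genes were mostly higher with SR9011+TGFb as well. Of 23 tested NRF2 targets, the antioxidant genes switched on by oxidants and electrophiles, 18 were higher and 1 lower, at a median of 0.31 (12 and 2 under TPM scaling). Ftl1, the ferritin light chain, was at 3121, 3577 and 3084 FPKM with SR9011+TGFb and at 1413, 1290 and 1365 with CLK8+TGFb (1.26 ± 0.07, adjusted p = 8e-13). Fth1, the heavy chain of the same iron store, read 2336, 2299 and 2049 against 1286, 1202 and 1459 FPKM. Ferritin was thus higher where Trf, the iron carrier, was lower. Gclc, the first enzyme of glutathione synthesis, and Txnrd1, thioredoxin reductase, were higher by 0.91 and 0.67. Genes of the ferritin light chain family have many near-identical pseudogene copies, so the value of Ftl1 depends on how reads were split among them.

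Among 18 tested p53 targets, 13 were higher and 3 lower, at a median of 0.54. Trp53inp1, an autophagy-linked p53 partner, was at 12.5, 15.2 and 12.2 FPKM with SR9011+TGFb and at 7.01, 7.21 and 7.61 with CLK8+TGFb. Bax, which opens mitochondria during apoptosis, read 143, 159 and 156 against 94.9, 90.6 and 87.5 FPKM. Gadd45a and Cdkn1a, a stress sensor and the cell cycle inhibitor p21, were higher by 0.72 and 0.66. All 4 were separated without overlap. The line carries SV40, whose large T antigen is known to bind p53; which SV40 product it expresses is not stated in the labels.

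In the integrated stress response, the program that ATF4 runs when translation is restrained, 19 of 34 tested genes were higher and 2 lower, at a median of 0.27. Atf3 (15.3, 17.9 and 16.8 against 9.78, 8.43 and 8.05 FPKM) and Ddit3, the factor CHOP (104, 125 and 113 against 77.8, 69.9 and 75.5 FPKM), led with Atf5 and Ppp1r15a at log2 differences of 0.86, 0.60, 0.69 and 0.62. The groups did not overlap in Atf3 or Ddit3. Leaving out replicate 2 of CLK8+TGFb lowered the count of higher genes to 12, and TPM scaling gave 13 higher and 3 lower. Exons of Ddit3 overlap those of Mars, those of Atf5 Nup62 and those of Ppp1r15a Tulp2.

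Promoters of this program often hold a composite element read by C/EBP and ATF factors. Its letters TGATGCAA, searched on both strands, were in 24.1% of the 29 windows of the list and in 0.582% of all windows, and the window of Atf3 is shown because Atf3 differed most. It lies on the minus strand at chr1:191183334-191183583, RefSeq on GRCm38.p6, and the element, in capitals, begins at -110 and reads TTGCATCA because it is on the opposite strand.
Atf3: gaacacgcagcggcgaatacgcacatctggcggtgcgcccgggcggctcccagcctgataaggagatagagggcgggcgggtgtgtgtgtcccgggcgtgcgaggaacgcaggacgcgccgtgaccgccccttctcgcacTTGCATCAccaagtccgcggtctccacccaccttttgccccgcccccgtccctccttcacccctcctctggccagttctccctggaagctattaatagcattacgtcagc
Of genes at least 2-fold higher, 1.92% of windows held the same letters, and of those at least 2-fold lower, 0.69%.

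**Figure D3:**
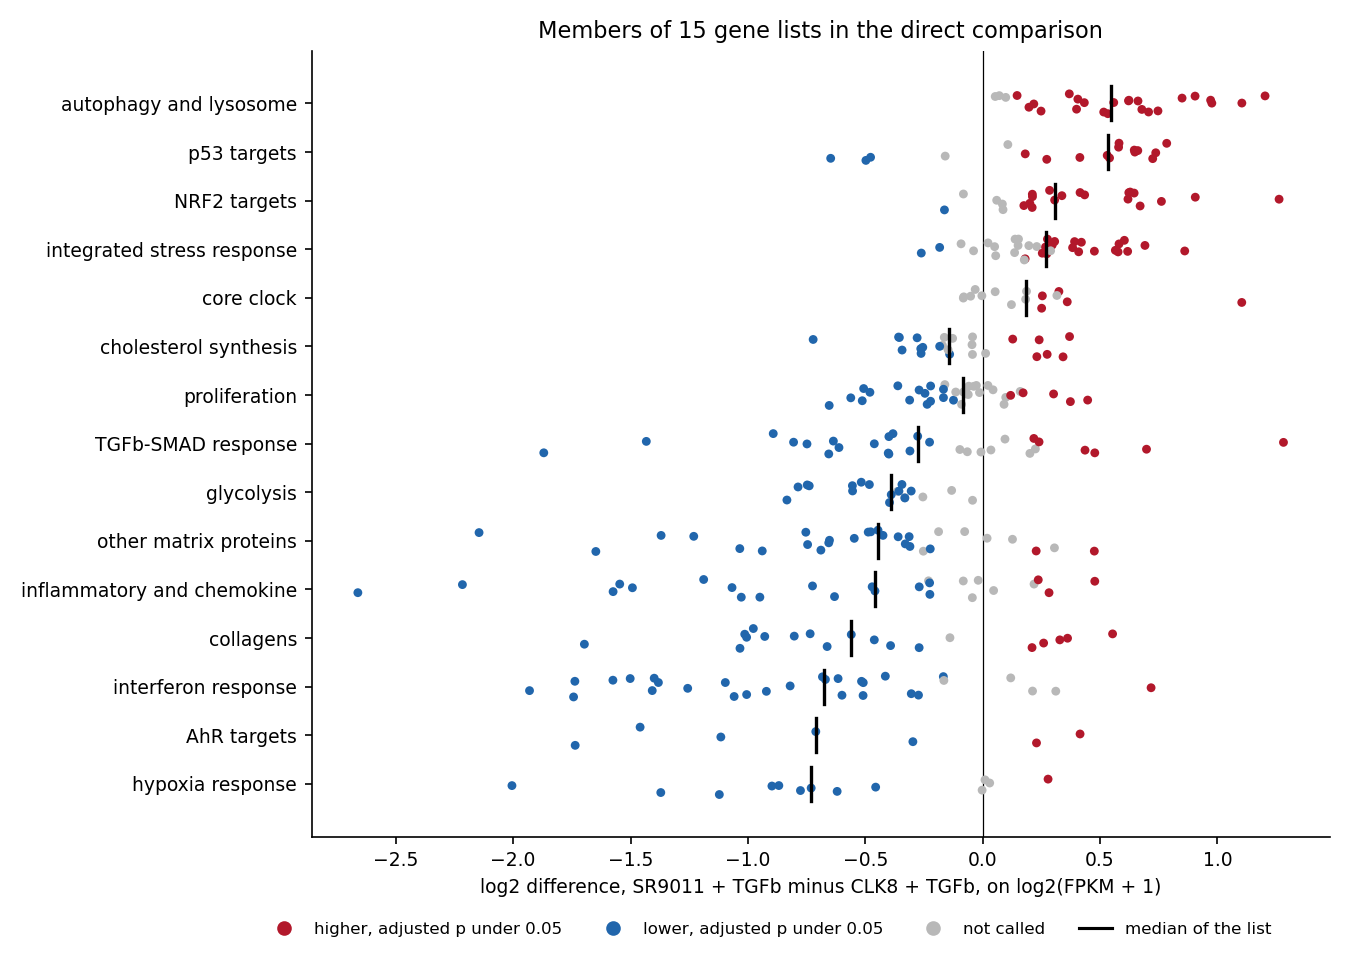
Log2 difference, SR9011+TGFb minus CLK8+TGFb on log2(FPKM + 1), of each tested member (points) of 15 gene lists, with the list's median (black bar); red and blue points passed the adjusted threshold. The lysosomal list is highest with 23 of 26 genes called higher, and the interferon list holds 25 of 30 genes called lower.

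Glucose and oxygen genes were lower with SR9011+TGFb. Of 19 tested glycolysis genes, 14 were lower and 0 higher, at a median of -0.39. Slc16a3, the lactate exporter, was at 55.4, 61.5 and 57.4 FPKM with SR9011+TGFb and at 83.5, 115 and 118 with CLK8+TGFb. Pgk1, the first ATP-forming enzyme of the pathway, read 419, 424 and 407 against 588, 773 and 743 FPKM. Of 13 tested hypoxia genes 9 were lower and 1 higher, at a median of -0.73. Car9, the carbonic anhydrase that marks hypoxic cells, was at 0.77, 0.69 and 0.63 against 5.14, 6.68 and 5.69 FPKM (-2.01 ± 0.18, adjusted p = 9.8e-09), and Egln3, an oxygen-sensing prolyl hydroxylase, at 3.36, 3.45 and 2.96 against 7.35, 11.97 and 11.3 FPKM. In both lists replicate 1 was the lowest CLK8+TGFb library, in 17 of the 19 glycolysis and 12 of the 13 hypoxia genes (2594 of all 11297), and its part in the result can be read from leaving it out, which gave 17 lower glycolysis and 9 lower hypoxia genes. Leaving out replicate 2 or 3 of CLK8+TGFb gave 11 lower glycolysis genes. Against TGFb alone, 16 of 19 glycolysis genes were lower with SR9011+TGFb and 5 with CLK8+TGFb, at medians of -0.64 and -0.23. Of all tested genes, 24.0% and 13.3% were lower in these contrasts.

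Lipid synthesis showed a smaller difference. Of 18 tested genes of fatty acid and triglyceride synthesis, 13 were lower and 1 higher, at a median of -0.26. Scd1 and Scd2, the desaturases that make monounsaturated fatty acids, were at 72.2, 68.8 and 68.8 against 113, 109 and 118 FPKM and at 466, 458 and 454 against 699, 750 and 760 FPKM. Elovl6, a fatty acid elongase, and Dgat2, the last enzyme of triglyceride synthesis, were lower by -0.73 and -0.70. In each of the 4 the groups were separated. Of 8 tested genes of cholesterol efflux and LXR, 5 were higher and 1 lower, led by Soat1, which esterifies cholesterol, at 35.04, 37.98 and 32.8 against 21.6, 22.4 and 22.01 FPKM, and by Npc1, which exports cholesterol from lysosomes (0.44). Cholesterol synthesis was mixed under TGFb, with 6 of 24 genes higher and 10 lower at a median of -0.14, 2 higher and 14 lower under TPM scaling, and 6 lower without replicate 2 of SR9011+TGFb; it returns below, because it differed between the states with and without TGFb.

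The same 2 compounds were also compared without TGFb, in 6 libraries that share none with the comparison above. There they differed at 7189 genes (63.6%), 3675 (32.5%) higher and 3514 (31.1%) lower with SR9011, and by at least 2-fold at 140 genes higher (1.24%) and 296 lower (2.62%). Across the 11297 genes the log2 differences with and without TGFb correlated at Pearson's r = 0.77, given as a description across genes, which are not independent replicates. Of 4731 genes called in both, 4495 had the same sign. The spread of the log2 differences over genes was 0.35 (SD) with TGFb and 0.45 without, and 229 genes passed 2-fold with TGFb against 436 without.

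The interaction, the difference with TGFb minus the difference without, tested gene by gene whether the contrast between the compounds differed between those states. TGFb and the further 24 h with the compound cannot be told apart in it. The interaction passed at 2982 genes (26.4%), 1633 (14.5%) above 0 and 1349 (11.9%) below 0. Of these, 72 (0.637%) and 44 (0.389%) were at least 2-fold. TPM scaling turned that split into 1136 above and 1673 below. The 3 libraries of SR9011 without TGFb varied more among themselves than the 6 compared under TGFb: their mean squared deviation from the group mean was 0.00925 to 0.0192, against 0.00378 to 0.00552. A fit that weights the groups by their spread gave SR9011 alone a weight of 0.347 and left 1314 interactions above 0 and 976 below.

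**Figure D4:**
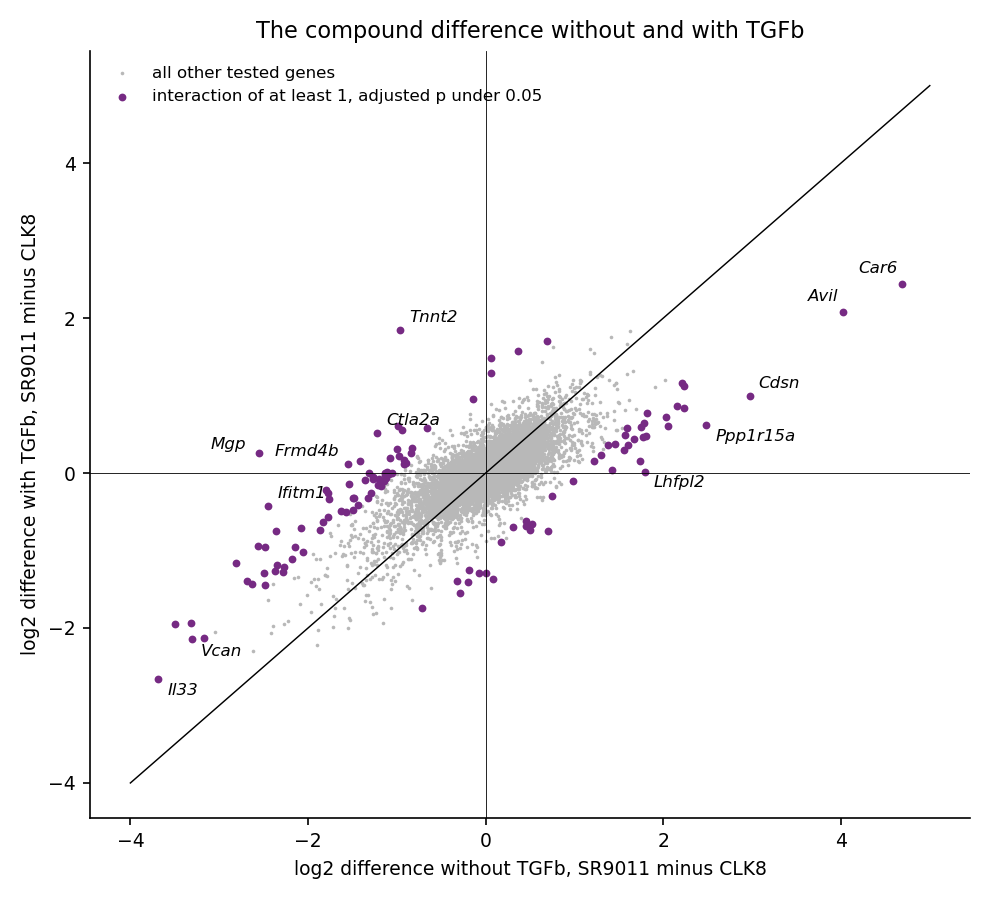
Log2 difference between the compounds without TGFb (horizontal axis) and with TGFb (vertical axis) for 11297 genes, both SR9011 minus CLK8; the line marks equal differences and purple points are called interactions of at least 1 on the log2 scale. Most points run along the line (r = 0.77), while Car6 and Avil lie to its right and Tnnt2 and Mgp above it.

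Tnnt2 reversed its order between the states. With TGFb it was higher with SR9011 (12 ± 1.05 against 2.64 ± 0.54 FPKM, SD, n = 3 each), and without TGFb it was lower (0.34, 0.15 and 0.13 against 0.91, 1.53 and 1.68 FPKM); the interaction was 2.81 (adjusted p = 9e-11). Mgp, the matrix Gla protein that inhibits calcification (chr6:136872435-136875823), was at 206, 92.5 and 163 FPKM with SR9011+TGFb and at 137, 102 and 128 with CLK8+TGFb. Those groups overlapped and the difference of 0.26 missed the threshold (adjusted p = 0.30); without replicate 2 of SR9011+TGFb it was 0.59 (adjusted p = 0.0038). Without TGFb Mgp was at 24.8, 17.6 and 20.5 FPKM with SR9011 and at 130, 112 and 139 with CLK8, and the interaction was 2.81 (adjusted p = 1e-06). Car6 and Avil kept their direction and shrank: their differences were 4.69 and 4.02 without TGFb against 2.44 and 2.07 with it. Il33 and Vcan likewise went from -3.69 to -2.66 and from -3.30 to -2.15.

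The integrated stress response differed less between the compounds with TGFb than without it. Without TGFb, 32 of its 34 genes were higher with SR9011 than with CLK8 and 0 lower, at a median of 0.88, against 19 and 2 at 0.27 with TGFb. The interaction was below 0 at 27 genes and above 0 at 0, and 26 and 0 in the weighted fit. Ddit3 was at 284, 201 and 240 FPKM with SR9011 alone and at 61.5, 48.6 and 62.0 with CLK8 alone, a log2 difference of 2.05, which stood at 0.60 with TGFb (interaction -1.45, adjusted p = 2e-07). Ppp1r15a, the phosphatase subunit that ends the response, went from 2.48 to 0.62. Vehicle gave 36.8 FPKM of Ddit3 and TGFb alone 37.4, and SR9011 without TGFb was the highest of these 6 groups. Over the whole list TGFb alone lay above vehicle, at a median of 0.59, so Ddit3 does not stand for the list in this respect.

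Cholesterol synthesis moved in the opposite sense. Without TGFb, 22 of 24 genes were lower with SR9011 than with CLK8 and 0 higher, at a median of -0.72, and the interaction was above 0 at 24 of 24 genes (23 under TPM scaling, 24 in the weighted fit) at a median of 0.63. Hmgcs1, an early enzyme of the pathway picked after its values were seen, was at 32.1, 47.7 and 38.5 FPKM with SR9011 alone and at 80.0, 97.6 and 85.4 with CLK8 alone; with TGFb it read 50.5, 46.6 and 48.8 against 54.7, 53.7 and 56.2 FPKM. The groups did not overlap in either state, and the difference went from -1.15 to -0.17, the latter not past the threshold (adjusted p = 0.12). Against TGFb alone, 19 of 24 genes were lower with SR9011+TGFb (24.0% of all tested genes were) and 18 with CLK8+TGFb (13.3%). The medians were -0.45 and -0.32, so with TGFb both groups lay below the shared TGFb libraries. Replicate 2 was the lowest SR9011+TGFb library in 22 of the 24 genes and the lowest CLK8+TGFb library in 17.

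**Figure D5:**
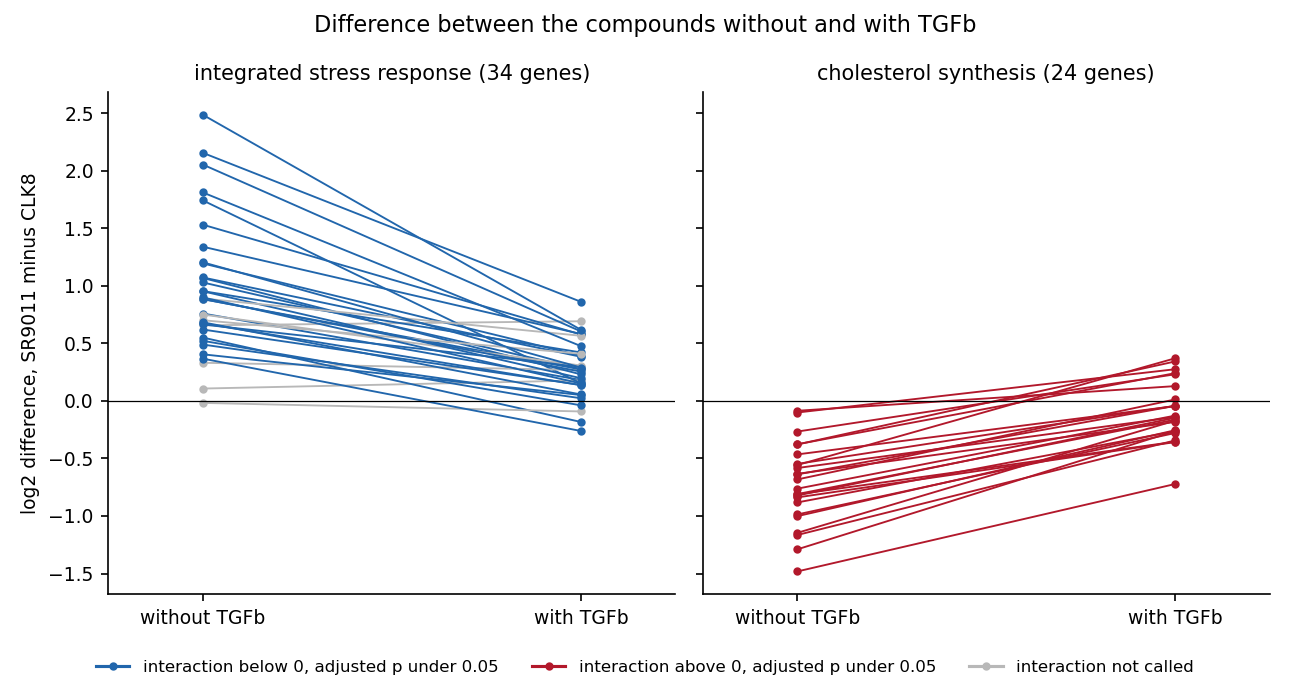
Log2 difference between the compounds (SR9011 minus CLK8, vertical axis) for each gene of the integrated stress response (34 genes, left) and of cholesterol synthesis (24 genes, right), joined from without TGFb to with TGFb; blue and red lines passed the interaction test. The stress genes fall toward 0 (27 called) and the cholesterol genes rise toward it (24 called).

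Single genes of other lists differed between the compounds by similar amounts in both states, while their lists held called interactions. Per1 differed by 1.05 without TGFb and by 1.10 with it, and Ftl1 by 1.29 and 1.26, with interactions of 0.06 (adjusted p = 0.7) and -0.03 (0.9). Ctsl differed by 1.13 and 0.98. Yet of the lysosomal list 14 of 26 genes had an interaction above 0 and 1 below, and of the NRF2 list 4 of 23 above and 8 below. Interactions also passed in 13 of 20 genes of ER chaperones and the unfolded protein response above 0 and 1 below, and in 1 of 18 contractile genes above and 9 below. The interferon list had 22 of 30 genes lower and 2 higher without TGFb, at a median of -0.55, and its interaction passed at 1 gene above and 3 below 0. The collagens had 3 of 19 interactions above 0 and 6 below. Over all tested genes, 14.5% had a called interaction above 0 and 11.9% below, the background for these counts. Col3a1 differed by -1.86 without TGFb and -1.70 with it, while Col5a1, a minor fibrillar chain picked after its values were seen, went from -0.39 to -0.93. A missed threshold does not show that the 2 differences were equal; the median SE of an interaction was 0.0904 on the log2 scale.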

How the data were processed

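EMS404 libraries were made at BGI from RNA extracted with either of 2 kits, per the labels' protocols; which sample had which is not given. The deposited table holds FPKM per gene as computed by the authors; the submitters' processing notes name mm10, HISAT2 2.0.4, Bowtie2 2.2.5, RSEM and DESeq2, with no roles. Of 16612 gene identifiers, 8 with 2 lines each were left out. FPKM values, rounded to 2 decimals, were tested as log2(FPKM + 1) with limma 3.58.1 (R 4.3.3; trend, robust; 16 residual degrees of freedom) with all 8 groups in 1 model, and tested on simulated data first. Named genes were the 15 largest called differences each way without overlap between groups, up to 4 called genes per list, the 5 largest interactions each way and a fixed set of clock and fibrosis genes. These members and the 36 lists were chosen with earlier results of these data known. Alternatives were other pseudocounts, filters, TPM and quantile scaling, no trend, group weights, a replicate block, the compared groups alone and leaving out each library. Gene positions are from GENCODE M21 (GRCm38, the build named mm10 elsewhere).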

Additional observations from a re-analysis of the deposited data

Results flagged for a closer look

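Of 172 tested named genes, 88 had a called interaction, 55 above 0 and 33 below. Of all tested genes 26.4% had one, 14.5% above 0 and 11.9% below. Most named genes were picked for called differences or interactions in these same data, so their share is set in part by that choice. Listed here are the 24 called among the 37 genes with the largest differences or interactions. In these the difference between the compounds with TGFb differed from that without TGFb by the interaction test (limma, adjusted p under 0.05). Values are the log2 difference with TGFb minus that without, SR9011 minus CLK8, from 3 libraries in each of 4 groups. Above 0 were Tnnt2 (2.81), Mgp (2.81), Ifitm1 (2.02), Ctla2a (1.74), Frmd4b (1.67), Serpina3g (1.55), Fam180a (1.42), Slpi (1.38), Birc7 (1.24) and Cryab (1.20). Vcan (1.16), Vstm2a (1.05), Il33 (1.02), Nbl1 (1.01), Ptn (0.996), Plxdc1 (0.86), Cilp2 (0.80), Adamtsl5 (0.43) and Trnp1 (0.33) were also above 0. Below 0 were Car6 (-2.26), Cdsn (-1.98), Avil (-1.95), Ppp1r15a (-1.87) and Lhfpl2 (-1.77); Ddit3, outside those 37, stood at -1.45. Lhfpl2, for example, was at 31.4, 32.8 and 29.1 FPKM with SR9011+TGFb and at 31.7, 30.2 and 30.0 with CLK8+TGFb, but differed by 1.79 without TGFb. Frmd4b was close with TGFb (0.12) and differed by -1.55 without it. The larger spread among the SR9011 libraries without TGFb bears on all of these values; Trnp1 was the one of these 24 whose interaction missed the threshold when groups were weighted by spread (adjusted p = 0.060).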

How the results depend on the processing

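The direct comparison called 5338 to 5567 genes when 1 library was left out, 2863 to 3090 higher and 2432 to 2645 lower. TPM scaling moved the split to 1881 higher and 4475 lower. Counts of at least 2-fold rested on the pseudocount: the 62 higher genes became 140 with 0.1, 97 with 0.5 and 40 under TPM, and the 167 lower genes 298 with 0.1; the interaction counts of 72 and 44 became 132 and 85 with 0.1. Without 1 library each, the 2-fold counts lay between 61 and 72 higher and between 148 and 176 lower, and the interaction counts between 1377 and 1835 above 0 and between 1042 and 1563 below. With the replicate block the calls were 3267 higher and 2905 lower (interaction 1693 and 1465); same-numbered libraries of the 2 groups correlated at -0.03, 0.07 and 0.03 in their deviations from the group means. Among the pairs the interaction adds, SR9011 with CLK8 gave 0.08, 0.40 and -0.01, and CLK8+TGFb with CLK8 gave 0.29, 0.20 and 0.01, and SR9011+TGFb with SR9011 gave -0.04, -0.01 and -0.02. Libraries of unlike number gave -0.32 to 0.25 for SR9011 with CLK8 and -0.30 to 0.11 for CLK8+TGFb with CLK8. The replicate number was left out of the main model because the labels do not say that it marks a shared batch. With 3 same-numbered pairs per set, these correlations cannot settle whether libraries shared one. Of 172 tested named genes 159 were called, most of them named because they were. Of these, 12 lost the call with the same sign under at least 1 alternative. Hsp90ab1 lost it too, with a change of sign, from 0.31 to -0.039 with quantile normalization (limma, adjusted p = 0.58). That value is close to no difference and does not show a reversal, and the cause was not tested. Read counts are not in the table, so counting error behind low FPKM values is unknown.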

Other observations

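The insulin-like growth factor axis carries growth signals between stromal cells and their surroundings. Of its 9 tested genes, 4 were lower with SR9011+TGFb and 2 higher, where 25.1% and 28.5% of all tested genes were. The counts were 4 and 2 under quantile normalization and 6 and 1 under TPM scaling. Igf1 was at 4.95, 4.08 and 4.54 FPKM with SR9011+TGFb and at 12.1, 13.6 and 13.1 with CLK8+TGFb, where TGFb alone gave 17.1. Igfbp3, the main carrier of IGF1 in blood, read 28.8, 21.96 and 25.3 against 71.2, 84.5 and 87.2 FPKM. Igf2 and Igfbp2 were lower by -0.95 and -1.30 on the log2 scale. Of 23 tested growth factor ligands and receptors, 11 were lower and 6 higher, led by the receptors Pdgfra (22.3, 16.98 and 20.8 against 51.3, 52.1 and 52.3 FPKM) and Egfr (20.4, 17.2 and 19.01 against 44.8, 45.5 and 44.2 FPKM), and by the ligands Kitl (-1.02) and Fgf7 (-0.81). In Igf1, Igfbp3, Pdgfra and Egfr the groups did not overlap.

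Of 17 tested stellate identity genes, 8 were lower and 6 higher (9 and 3 under TPM scaling). Hand2, a transcription factor of stellate cells, was at 33.7, 29.3 and 31.7 FPKM with SR9011+TGFb and at 75.9, 77.2 and 89.3 with CLK8+TGFb, and Rbp4, a carrier of vitamin A, was lower by -1.82. The mesothelial markers were divided: Msln (24.6, 32.9 and 30.6 against 12.6, 13.7 and 13.9 FPKM) and Upk1b (0.73) were higher, and Lrrn4 (-1.37) and Wt1 (-1.04) lower. Proliferation genes were lower in 15 of 36 cases and higher in 5, with Tyms, thymidylate synthase, at 25.2, 23.9 and 25.1 against 39.9, 38.4 and 40.3 FPKM; under TPM scaling 26 were lower and 2 higher. Oxidative phosphorylation genes had 4 of 30 higher and 3 lower, which TPM scaling turned into 2 higher and 16 lower; the lower count was 6 with the replicate block and 7 with the compared groups alone.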
